A study of Homo sapiens with 13 samples.

Results

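Globin genes encode the protein chains of haemoglobin, the oxygen carrier of red blood cells. The genes described here are HBE1, HBG1, HBG2, HBB, HBD and the pseudogene HBBP1 of the beta-like locus on chromosome 11, and HBZ, HBA1, HBA2 and HBQ1 of the alpha-like locus on chromosome 16. They were chosen by gene symbol and comprised 10 genes and 11 probes among the 47231 probes of the array, with 2 probes for HBA2, called probe 1 and probe 2 in order of brightness. All 11 probes passed the filter for detection in both experiments, among 22783 probes of the time course and 20495 of the sorted fractions.

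The study followed human embryonic stem cells on their way to blood with 13 Illumina bead arrays, which read RNA levels. Every array came from RUNX1C GFP/w cells, in which GFP reports on RUNX1C, a form of the blood transcription factor RUNX1. The parental line was HES3, an established embryonic stem cell line kept on mouse feeder cells with FGF2. Cells were aggregated by spinning into embryoid bodies in APEL, a defined medium, with BMP4, VEGF, SCF and Activin up to day 4 and with BMP4, VEGF, SCF, FGF2 and IGF2 after the medium change. The time course had 9 arrays, 1 per day from 0 to 8, all of unsorted cells. The other 4 arrays held day 7 cells sorted on CD34, found on endothelium and early blood cells, and CD41, found on megakaryocytes and the earliest blood cells. Cells without CD41 were split by CD34 into CD34- CD41-, CD34lo CD41- and CD34hi CD41-, and the remaining fraction was CD34lo CD41lo. Each fraction had 1 array, and all came from a single cell line.

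Between 15134 and 17833 probes were detected per array at a detection p below 0.01. Precision is limited by the number of arrays: with 1 array per day or fraction, no replicate spread stands behind a level. Levels are log2 values after background correction and quantile normalization, and the detection floor of an array, its lowest detected level, lay between 5.29 and 5.73. The days sat on 1 chip in day order, so day and chip position cannot be told apart. The fractions sat on another chip, so chip and experiment cannot be told apart, and unsorted day 7 cells are set beside the fractions without a comparison. The transcripts of the sort markers followed the gates: CD34 ran from 8.53 in CD34- CD41- cells to 12.88 in CD34hi CD41- cells. ITGA2B, which encodes CD41, was detected in CD34lo CD41- cells at 5.96 and in CD34lo CD41lo cells at 9.20, and in neither other fraction.

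Haemoglobin pairs alpha-like with beta-like chains, and both loci are switched during development in the order in which their genes lie. The first red cells, which arise in the yolk sac, carry zeta chains from HBZ and epsilon chains from HBE1. Fetal red cells carry alpha chains from HBA1 and HBA2 with gamma chains from HBG1 and HBG2, and adult red cells replace gamma with beta chains from HBB and a little delta from HBD. HBBP1 makes no protein, and the product of HBQ1, theta globin, has no settled function. HBG1 and HBG2, and likewise HBA1 and HBA2, are near-identical copies, so a probe of either may also bind its copy.

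Of the 10 genes 1, HBD, matched an entry of the RefSeq promoter table, and for this reason the bases before its start are shown. HBD was also the gene that differed most between the CD41- and CD41lo cells of the CD34lo gate. The 250 bases lie at chr11:5234484-5234733 on the minus strand of GRCh38.p14, written 5′ to 3′, with a CCAAT box on the same strand and the GATA factor motif AGATAA on the opposite strand in capitals.
HBD: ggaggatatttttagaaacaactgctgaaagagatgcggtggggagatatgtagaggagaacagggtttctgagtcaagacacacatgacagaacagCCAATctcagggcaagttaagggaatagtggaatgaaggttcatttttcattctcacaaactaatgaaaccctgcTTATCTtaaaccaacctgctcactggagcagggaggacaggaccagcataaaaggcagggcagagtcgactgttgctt
These motifs, and the CACCC box and the TATAAA box, were searched on both strands from 250 bases before to 50 bases after the start. CCAAT lay at position -153 from the start and AGATAA at position -78, with no overlap. The CACCC box, of the kind KLF1 binds, and the TATAAA box were not found as spelled. Of 35116 promoters of this length, 34.6% held the CCAAT box, 10.3% the GATA factor motif, 59.9% the CACCC box and 11.5% the TATAAA box. These matches describe letters only, and no binding was measured.

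Over days 0 to 8 the globin probes passed from not detected, or dim, to detected on day 8, and nearly all of the rise fell after day 4. On day 8 HBE1 ranked 219, HBG2 306, HBG1 310 and HBZ 830 by intensity on the array, and the other 7 probes between 1064 and 14694. All 11 probes had a trend over days at a Benjamini-Hochberg adjusted p below 0.05 in limma, against 38.6% of all probes. From day 4 to day 8 all 11 rose by at least 2-fold with an adjusted p below 0.05, where 4.75% of all probes did. From day 0 to day 8 this held for 10 of 11, against 11.2% of all probes, the exception being HBQ1. From day 0 to day 4 none rose, against 5.97% of all probes, and 1 fell, against 6.09%. The median fitted change of the 11 probes was 5.56 on the log2 scale from day 4 to 8 and -0.05 from day 0 to 4, where the medians over all probes were -0.05 and -0.01. The standard errors given below measure how far single days departed from a smooth curve of 3 degrees of freedom. In unsorted cells a gain of cells that express a gene and a gain of RNA per cell cannot be told apart.

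**Figure D1:**
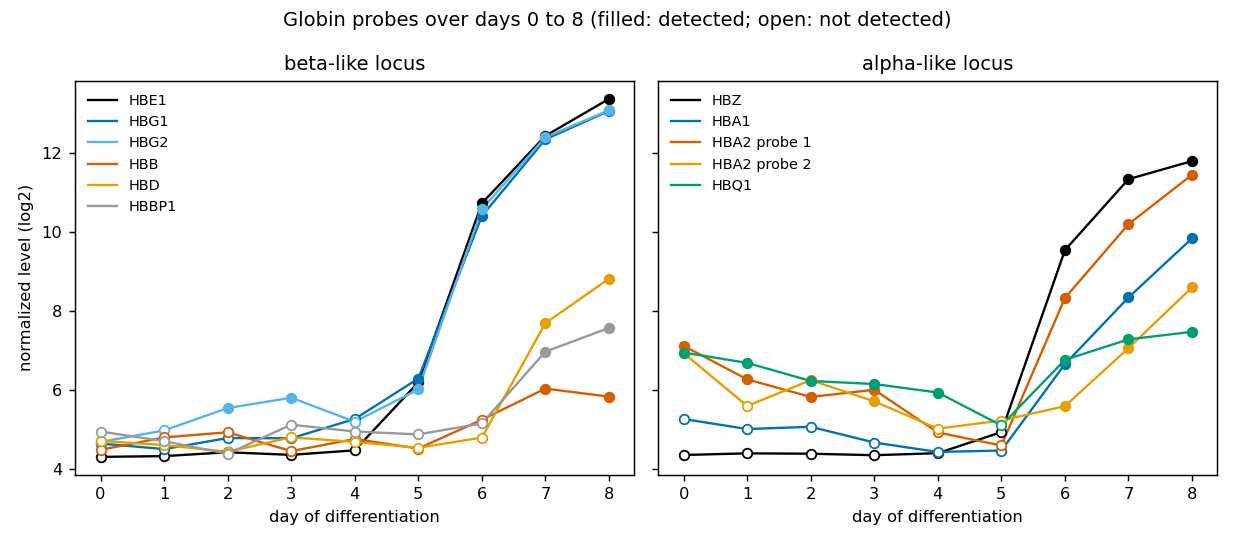
Normalized log2 level of each globin probe (y axis) against day of differentiation (x axis), 1 array per day, with the beta-like locus on the left and the alpha-like locus on the right; filled points were detected and open points were not. HBE1, HBG1, HBG2 and HBZ climbed steeply between days 5 and 7, HBD and HBBP1 were first detected at day 7, and HBA2 and HBQ1 were detected at day 0 and declined before they rose.

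HBE1, the embryonic beta-like gene, was not detected on any array from day 0 to day 4, where its level lay between 4.30 and 4.47. It stood at 6.19 on day 5, 10.73 on day 6, 12.44 on day 7 and 13.37 on day 8. The days therefore fell into a flat stretch and a climb that went on to the last day measured. By day 8 the probe had an intensity of 11676.6. The level at day 8 was at least 268-fold above that of day 4, and the fitted change over those days was 8.69 ± 0.89 (SE, adjusted p = 0.0006223).

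The fetal genes HBG1 and HBG2 followed closely. HBG1 was not detected up to day 4, where it stood at 5.26, and then stood at 6.29, 10.40, 12.35 and 13.07 on days 5 to 8. HBG2 was detected at low levels on day 2 (5.54) and day 3 (5.80), was not detected on day 4 (5.19), and then stood at 6.01, 10.58, 12.41 and 13.08. Both thus showed the same flat stretch and the same climb as the embryonic gene, apart from the dim early HBG2 signal. Fitted changes from day 0 to 8 were 8.91 ± 0.90 for HBG1 (adjusted p = 0.0002556) and 9.02 ± 1.14 for HBG2 (adjusted p = 0.0007569). HBG1 was at least 217-fold and HBG2 at least 219-fold higher on day 8 than on day 4.

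The adult genes of the beta-like locus were the last to be detected. HBD, the minor adult gene, was not detected through day 6, where it stood at 4.79. It stood at 7.69 on day 7 and 8.82 on day 8, with a fitted change from day 4 of 4.63 ± 0.43 (adjusted p = 0.0003889). The pseudogene HBBP1, which lies between HBD and HBG1, had the same timing, with 5.15 and no detection on day 6, 6.97 on day 7 and 7.57 on day 8. Its fitted change from day 4 to 8 was 2.96 ± 0.37 (adjusted p = 0.001703).

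HBB, the main adult gene, moved least within the beta-like locus. It was not detected through day 6 (5.24) and stood at 6.03 on day 7 and 5.83 on day 8, close to the floor of 5.30 and 5.29 on those arrays. The day 8 level was at least 1.43-fold that of day 4, a bound that starts from the day 4 floor. Its fitted change from day 4 to 8 was 1.40 ± 0.33 (adjusted p = 0.03097). This call was lost in 7 settings: without day 3, 4, 5 or 7 the adjusted p was 0.0637, 0.061, 0.0928 and 0.0557, with the submitters' values 0.067, without the filter 0.0644 and without further background correction 0.0566. From day 0 to 8 the fitted change was 1.49 ± 0.38 (adjusted p = 0.0199), which passed under every alternative run.

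At the alpha-like locus HBZ, the embryonic gene, had the largest fitted change from day 4 to 8. It was not detected through day 5 (4.93), and then stood at 9.54, 11.34 and 11.80 on days 6 to 8. The largest step was thus between days 5 and 6, at least 18.3-fold. That change was 7.67 ± 0.95 (adjusted p = 0.00166), and day 8 was at least 89.9-fold above day 4.

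The alpha genes used in fetal and adult life rose in the same days but kept rising more between days 7 and 8. HBA1 was not detected through day 5 (4.46) and stood at 6.65, 8.34 and 9.84 on days 6 to 8. Its fitted change from day 4 to 8 was 5.56 ± 0.38 (adjusted p = 8.717e-05). HBA2 probe 1 stood at 8.33, 10.20 and 11.45 on the same days, with a fitted change from day 4 of 6.76 ± 0.77 (adjusted p = 0.00104). HBA2 probe 2 was dimmer, at 5.59, 7.06 and 8.60, and its fitted change was 3.45 ± 0.37 (adjusted p = 0.0008224).

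Both HBA2 probes and HBQ1 were already detected in undifferentiated cells. HBA2 probe 1 stood at 7.12 on day 0, between 5.82 and 6.27 on days 1 to 3, and was not detected on days 4 and 5. HBA2 probe 2 stood at 6.93 on day 0 and was not detected on days 1, 4 and 5. HBQ1 stood at 6.95 on day 0, declined each day to 5.93 on day 4, was not detected on day 5 (5.10) and came back to 7.47 on day 8. The day 0 signal was therefore lost in these 3 probes before the later rise, and HBA1 was not detected on day 0 (5.26).

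Only HBA2 probe 2 passed the test for the early fall, with a fitted change from day 0 to 4 of -1.46 ± 0.37 (adjusted p = 0.03008). Its call was lost without day 3, 4, 5 or 7, where the adjusted p lay between 0.0509 and 0.0678. The fitted change was -1.81 for HBA2 probe 1 (adjusted p = 0.1503) and -1.17 for HBQ1 (adjusted p = 0.1005). HBA2 probe 2 was also the single globin probe at least 2-fold lower on day 1 than on day 0, where 1.75% of all probes were. The later rise of HBQ1, 1.94 ± 0.43 from day 4 to 8 (adjusted p = 0.02356), was lost without day 4 (adjusted p = 0.0501), without day 7 (0.065), without the filter (0.0625) and with the submitters' values (0.086). Its trend over days was lost without day 2, 4 or 7, at adjusted p from 0.0504 to 0.0531, without the filter (0.076) and with the submitters' values (0.0934). From day 0 to 8 HBQ1 changed by 0.77 ± 0.49 (adjusted p = 0.2905).

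Onset was taken as the first day on which a probe was detected and stayed detected. HBE1, HBG1 and HBG2 had their onset on day 5. HBZ, HBA1, both HBA2 probes and HBQ1 followed on day 6. HBB, HBD and HBBP1 came on day 7. At this limit the embryonic and fetal beta-like genes preceded the adult ones by 2 days, and within the embryonic pair HBE1 preceded HBZ by 1 day. Because probes differ in brightness, a dim probe crosses the floor later than a bright one for the same RNA. By the midpoint between the lowest and highest level of each probe, which does not use the floor, HBE1, HBG1, HBG2, HBZ, HBB, HBQ1 and HBA2 probe 1 crossed on day 6, and HBD, HBBP1, HBA1 and HBA2 probe 2 on day 7. The order also depended on the detection limit. At p below 0.05 the onset moved to day 4 for HBG1, day 2 for HBG2, day 0 for HBA2 probe 2 and HBQ1, and day 6 for HBB and HBBP1. HBE1 stayed at day 5, HBZ, HBA1 and HBA2 probe 1 at day 6 and HBD at day 7, so HBE1 then came after the fetal pair, and HBB with HBZ.

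The largest steps between neighbouring days fell between days 5 and 6. From day 5 to 6, 7 of the 11 probes were at least 2-fold higher, where 0.909% of all probes were, and 5 were at least 4-fold higher, where 0.119% were. The measured steps were 23.3-fold for HBE1, 17.4-fold for HBG1 and 23.7-fold for HBG2. From day 6 to 7, 9 probes were at least 2-fold higher, where 0.452% of all probes were. HBD had the largest of these steps, at least 4.98-fold.

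From day 7 to 8, 4 probes were at least 2-fold higher, where 0.549% of all probes were. They were HBD (2.18-fold), HBA1 (2.83-fold) and HBA2 (2.38-fold and 2.90-fold). HBE1, HBG1, HBG2 and HBZ were higher by 1.91-fold, 1.65-fold, 1.60-fold and 1.37-fold over the same day, HBBP1 by 1.52-fold and HBQ1 by 1.14-fold, while HBB was 1.15-fold lower; the genes past 2-fold were thus an adult beta-like gene and both alpha genes. Over the whole interval from day 4 to 8, 10 of 11 probes were at least 2-fold higher, where 6.41% of all probes were. These steps are differences between single arrays, with no test.

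Lists of genes of the globin programme and of other cell types were counted in the same fit. Of 15 genes of haem synthesis and handling, 5 rose from day 0 to 8 and 2 from day 4 to 8. ALAS2, the red cell form of the first enzyme of haem synthesis, rose by 5.65 ± 0.41 from day 0 to 8 (adjusted p = 5.755e-05), and it was detected from day 3 on. ALAD (1.96, adjusted p = 0.0004622), SLC25A37 (1.69, adjusted p = 0.01833) and UROS (1.08, adjusted p = 0.01161), which serve haem synthesis or bring iron to it, also rose. Of 13 tested genes of the red cell membrane, chaperones and carriers, 8 rose from day 0 to 4, where 5.97% of all probes did, 7 from day 0 to 8 (11.2%) and none from day 4 to 8 (4.75%). The list median was 1.96 from day 0 to 4 and -0.50 from day 4 to 8. GYPE, a glycophorin gene, stood at 4.57 on day 0, 12.06 on day 3, 12.44 on day 4 and 10.45 on day 8, and KEL, which encodes the Kell blood group protein, stood at 4.36, 7.16, 8.03 and 7.31. Their fitted changes from day 0 to 4 were 7.59 ± 1.39 for GYPE (adjusted p = 0.007597) and 3.55 ± 0.44 for KEL (adjusted p = 0.001288). From day 0 to 8 GYPE (6.71, adjusted p = 0.01497) and TMOD1 (3.64, adjusted p = 0.04489) also rose, but without the filter on detection their adjusted p was 0.054 and 0.129. TMOD1 was also lost without day 4, 5, 6 or 7 and with a spline of 2 degrees of freedom (adjusted p = 0.0733). The GYPE probe may also bind transcripts of similar sequence.

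Of 18 tested regulators of globin genes, 6 rose and 1 fell from day 0 to 8, where 11.2% of all probes rose and 10.7% fell. The largest rises, as fitted log2 changes, were LYL1 (4.54, adjusted p = 0.003273), LMO2 (4.24, adjusted p = 0.002812), NFE2 (3.45, adjusted p = 0.000239) and KLF2 (2.29, adjusted p = 0.00733), all transcription regulators of blood or vessel cells. BCL11A, which silences the gamma genes in adult red cells, fell by 1.82 on the log2 scale (adjusted p = 0.002968), from 10.10 on day 0 to 8.31 on day 8. KLF1, which activates HBB in adult red cells, changed by 0.75 (adjusted p = 0.1001), GATA1 by 0.74 (adjusted p = 0.107) and TAL1 by 0.76 (adjusted p = 0.1459). On day 8 KLF1 stood at 5.45 and GATA1 at 5.36, close to the floor of 5.29 on that array. Among the days GATA1 was detected on days 6 and 8 alone, and KLF1 was not detected on days 0 to 2 and 6. MYB changed by 2.01 (adjusted p = 0.0687), and LIN28B, an RNA-binding protein of fetal cells, by 0.53 (adjusted p = 0.1217). ZBTB7A, another repressor of gamma genes, changed by -0.32 (adjusted p = 0.4708). KLF1 passed with the submitters' values (1.66, adjusted p = 0.0479) and without further background correction (1.008, adjusted p = 0.0434). TAL1 passed with a spline of 2 degrees of freedom (1.52) and with a bend at day 4 (adjusted p = 0.0149). MYB passed with a spline of 2 degrees of freedom (2.38) and of 4 (adjusted p = 0.0472). MYB also passed with a bend at day 4 (adjusted p = 0.0121), without day 1 (0.0362) and without day 4 (0.0183).

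Markers of other cell types changed over the same days. Over all probes 11.2% rose and 10.7% fell from day 0 to 8, and 4.75% rose from day 4 to 8. Of 10 genes of yolk sac and liver endoderm, 9 rose from day 0 to 8 and 8 from day 4 to 8, and their summed level went from 2746.8 on day 4 to 68595.7 on day 8. Of 8 mesenchyme genes, 6 rose and 1 fell from day 0 to 8, with a summed level of 6762.4 on day 4 and 34025.1 on day 8. Of 10 endothelial genes tested, 8 rose from day 0 to 8. Of 6 tested leukocyte genes 2 rose, and of 6 megakaryocyte genes none, while PF4, PTPRC and MPO were detected on no array. All 8 genes of undifferentiated cells fell. Of 12 reference genes 1 rose, B2M, by 1.63 (adjusted p = 0.00932). The part of these cell types in the globin trends was not tested.

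In the day 7 fractions every globin gene was highest in CD34lo CD41lo cells and none of the 11 probes was higher in CD34hi CD41- than in CD34lo CD41- cells. All 11 probes were at least 2-fold higher in CD34lo CD41lo than in CD34lo CD41- cells, where 2.83% of all probes were. The size of this gap differed between the genes: about 3-fold for HBE1, HBG1, HBG2 and HBZ, and more than 6-fold for the rest. Comparisons between fractions share arrays, rest on 1 array each and have no test.

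**Figure D2:**
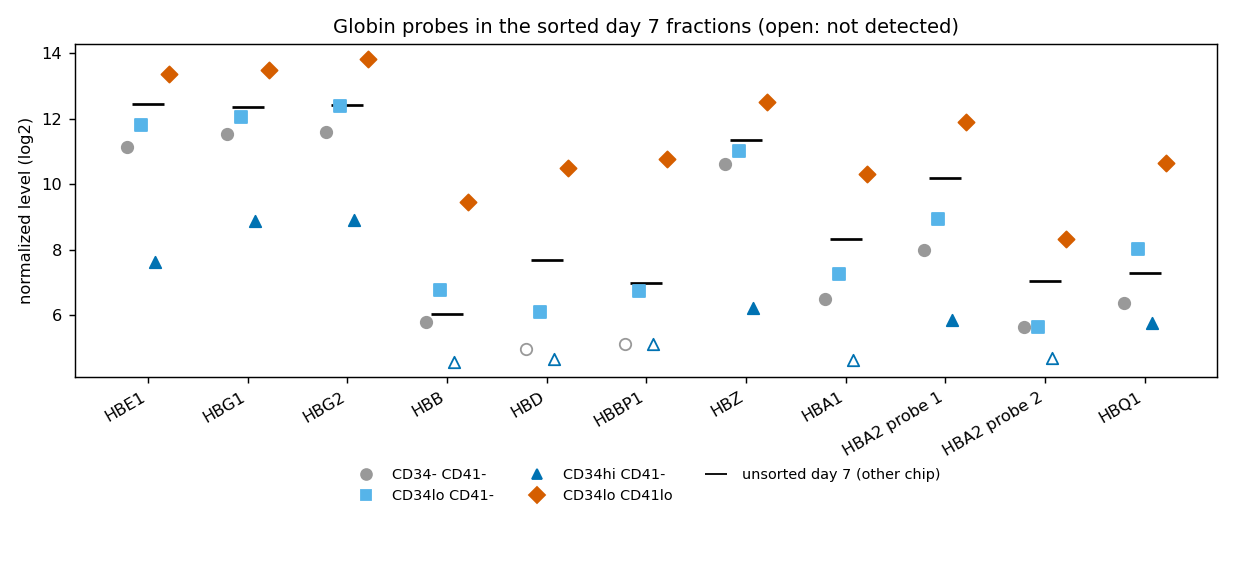
Normalized log2 level (y axis) of each globin probe (x axis) in the 4 sorted day 7 fractions, 1 array each; open symbols were not detected, and the black bar is the unsorted day 7 array of the other chip. The CD34lo CD41lo symbol is the highest of the 4 fractions for every probe, and the CD34hi CD41- symbol is the lowest or not detected for every probe.

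HBE1 stood at 11.13 in CD34- CD41-, 11.81 in CD34lo CD41-, 7.64 in CD34hi CD41- and 13.36 in CD34lo CD41lo cells. HBG1 stood at 11.54, 12.05, 8.89 and 13.49 in the same order. HBG2 stood at 11.60, 12.38, 8.91 and 13.82. These 3 genes were thus detected in all 4 fractions, in the same order of levels, with the CD34hi CD41- cells far below the others. Unsorted day 7 cells, on the other chip, had 12.44, 12.35 and 12.41 for the 3 genes.

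CD34lo CD41lo cells exceeded CD34lo CD41- cells by 2.95-fold for HBE1, 2.71-fold for HBG1 and 2.72-fold for HBG2. HBZ stood at 10.63, 11.00, 6.21 and 12.50 and differed by 2.83-fold. The HBG2 probe had an intensity of 14478.3 in CD34lo CD41lo cells, where the brightest probe of that array had 15651.2. HBG1 had 12358.7, HBE1 11751.2 and HBZ 6850.8. Whether the upper end of the scale held down these folds was not tested.

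The adult beta-like genes showed a wider gap than HBE1, HBG1, HBG2 and HBZ. HBB stood at 5.79 in CD34- CD41-, 6.76 in CD34lo CD41- and 9.45 in CD34lo CD41lo cells and was not detected in CD34hi CD41- cells. HBD was detected in 2 fractions, at 6.09 in CD34lo CD41- and 10.50 in CD34lo CD41lo cells. HBBP1 was detected in the same 2 fractions, at 6.73 and 10.78. The adult genes were therefore detected together with the pseudogene in the CD34lo gates, and HBB alone of the 3 in CD34- CD41- cells. CD34lo CD41lo cells exceeded CD34lo CD41- cells by 6.43-fold for HBB, 21.3-fold for HBD and 16.6-fold for HBBP1.

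In the gap between the CD34lo gates the alpha genes and HBQ1 lay above HBE1, HBG1, HBG2 and HBZ and below HBD and HBBP1, with HBB among them. HBA1 stood at 6.49, 7.25 and 10.32 in CD34- CD41-, CD34lo CD41- and CD34lo CD41lo cells and was not detected in CD34hi CD41- cells. HBA2 probe 1 stood at 7.99, 8.95, 5.84 and 11.90 in the 4 fractions. HBQ1 stood at 6.37, 8.01, 5.77 and 10.66. Each was highest in CD34lo CD41lo cells, where the fold over CD34lo CD41- cells was 8.40 for HBA1, 7.74 and 6.47 for the 2 HBA2 probes and 6.24 for HBQ1. Together with HBB, HBD and HBBP1 these made 7 of 11 probes at least 4-fold higher, where 0.122% of all probes were.

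**Figure D3:**
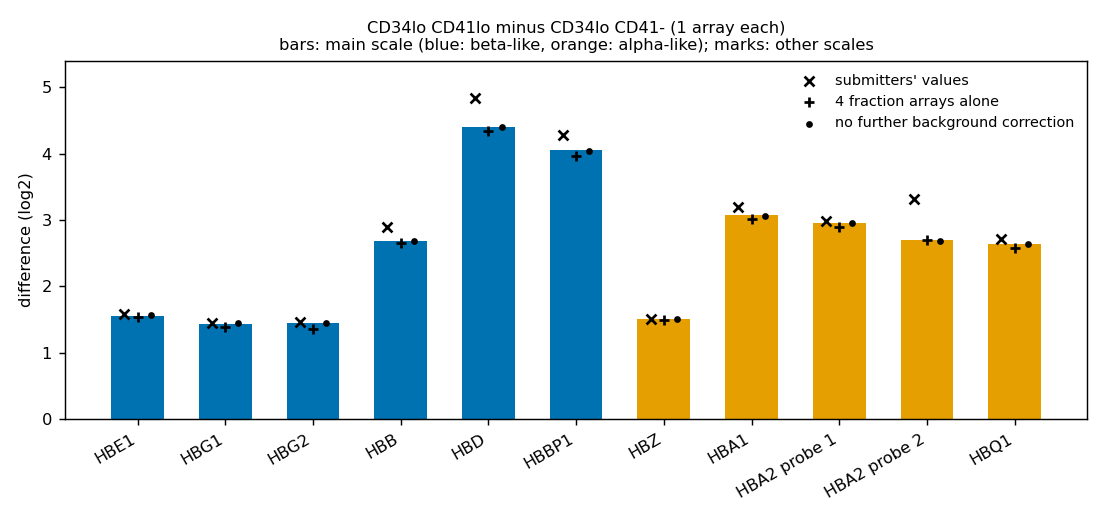
Difference in log2 level between the CD34lo CD41lo and CD34lo CD41- arrays (y axis) for each globin probe (x axis), with bars for the scale used in the text and marks for 3 other scalings. HBE1, HBG1, HBG2 and HBZ lie between 1.44 and 1.56 on the scale used in the text and the other 7 probes between 2.64 and 4.41, and the 2 groups stay apart under each of the other scalings.

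In the remaining pairs CD34lo CD41lo cells again stood above the others. CD34lo CD41lo cells were at least 2-fold above CD34- CD41- cells for all 11 probes, where 8.6% of all probes were, from 3.66-fold for HBZ to at least 45.0-fold for HBBP1. They were at least 4-fold above CD34hi CD41- cells for all 11, where 0.668% of all probes were at 4-fold and 5.21% at 2-fold. The largest measured folds in that pair were 78.3 for HBZ, 66.9 for HBA2 probe 1 and 53.0 for HBE1. CD34hi CD41- cells were at least 2-fold below CD34lo CD41- cells for 9 probes, where 3.68% of all probes were, and below CD34- CD41- cells for 6, where 8.2% were. HBZ was 27.7-fold and HBE1 18.0-fold lower in CD34hi CD41- than in CD34lo CD41- cells.

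CD34lo CD41- cells were at least 2-fold above CD34- CD41- cells for 2 probes, where 2.6% of all probes were: HBQ1 at 3.12-fold and HBBP1 at a minimum of 2.71-fold. Of the other 9, HBD was higher by at least 1.74-fold and 8 measured differences lay below 2-fold, with HBE1 at 1.60-fold and HBZ at 1.29-fold. With the submitters' values 5 probes passed in that pair.

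Markers of other cells differed between these fractions. The summed level of the 10 endoderm genes was 40399.6 in CD34- CD41-, 27598.5 in CD34lo CD41-, 1587.4 in CD34hi CD41- and 1703.8 in CD34lo CD41lo cells, and AHSG was detected in none of the 4. The 8 mesenchyme genes summed to 17654.6, 14166.7, 6541.4 and 2360.6. The 12 endothelial genes on the array summed to 1843.3, 7616.8, 27991.4 and 5292.7, and the 9 megakaryocyte genes to 176.1, 1057.8, 2030.1 and 3102.3. HBE1, HBG1, HBG2 and HBZ were therefore high in CD34- CD41- cells, where endoderm markers were highest. They were also high in CD34lo CD41lo cells, where those markers were near their lowest. The other globin probes stood at 7.99 or lower in CD34- CD41- cells, with HBD and HBBP1 not detected. Every globin probe was lowest or not detected in CD34hi CD41- cells, where endothelial markers were highest. On the unsorted day 7 array of the other chip the endoderm genes summed to 53556.4 and the mesenchyme genes to 30052.2. AHSG was detected there at 9.52. The part of cells with these markers in the globin levels was not tested.

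Genes of the red cell programme differed in which fraction they were highest. Red cell membrane, chaperone and carrier genes summed to 6333.1, 15425.1, 5646.3 and 31736.4, with 11, 15, 10 and 17 of 21 detected. KEL stood at 8.83, 8.42, 5.96 and 8.68, and TMOD1 at 8.25, 8.32 and 7.41 in all but CD34hi CD41- cells, where it was not detected. EPOR, the erythropoietin receptor gene, stood at 8.19 in CD34lo CD41- and 8.18 in CD34lo CD41lo cells. The sum was thus largest in CD34lo CD41lo cells, whereas KEL and TMOD1 were higher elsewhere and EPOR was level between the CD34lo gates. The 15 genes of haem synthesis and handling summed to 6938.6, 10563.8, 5824.3 and 19503.1, so this sum too was largest in CD34lo CD41lo cells. Of these genes ALAS2 stood at 9.40, 10.94, 7.50 and 12.44. HMOX1, which breaks haem down, went against the sum, at 8.21, 7.22, 7.06 and 6.70. EPOR and HMOX1 were chosen after their values were seen. KLF1 stood at 5.55, 7.11, 5.72 and 8.67, and GATA1 was detected in CD34lo CD41- cells at 6.74 and in CD34lo CD41lo cells at 8.44 and in neither other fraction. BCL11A stood at 8.39, 7.45, 6.23 and 6.13, detected in all 4 fractions and lowest in CD34lo CD41lo cells. Its part in the globin levels was not tested.

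Shares of signal within a locus were followed from array to array, because a ratio within an array needs no scaling between arrays. Probes differ in how well they bind, so a share is of probe intensity, not of RNA, and is read only as a change between arrays. In the beta-like locus HBE1 made up 36.8% of the summed intensity on day 6, 34% on day 7 and 36.8% on day 8. The fetal pair made up 62.5%, 64.6% and 61.4%. The adult pair HBB and HBD, not detected on day 6, made up 1.47% on day 7 and 1.82% on day 8. The balance of embryonic and fetal signal thus moved by less than 4 percentage points while the summed intensity went from 4468.3 to 31757.4.

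**Figure D4:**
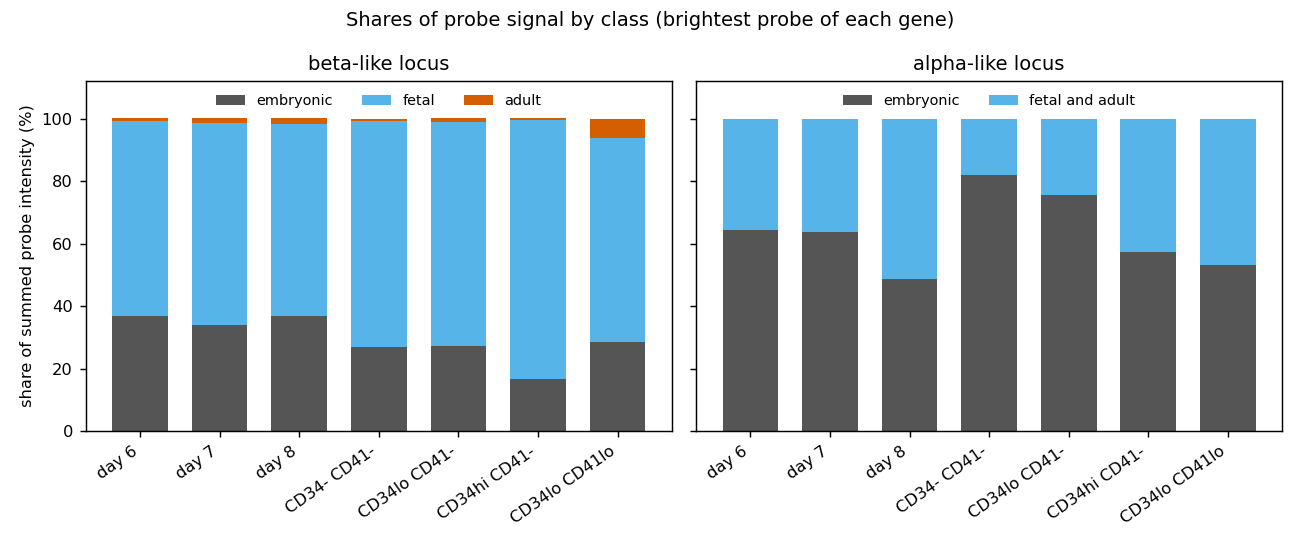
Share of the summed deposited intensity (y axis, %) taken by embryonic, fetal and adult genes of the beta-like locus (left) and by embryonic and fetal or adult genes of the alpha-like locus (right) on the arrays of days 6 to 8 and the 4 day 7 fractions (x axis), with the brightest probe of each gene. Among the fractions the adult beta-like share is largest in CD34lo CD41lo cells, at 6.11%, and among the days the embryonic alpha-like share is smallest on day 8, at 48.8%.

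Among the fractions the adult beta-like share was 0.775% in CD34- CD41-, 1.24% in CD34lo CD41- and 6.11% in CD34lo CD41lo cells, and neither adult gene was detected in CD34hi CD41- cells. In CD34lo CD41lo cells HBG2 had an intensity of 14478.3, where the brightest probe of the array had 15651.2. Whether the upper end of the scale raised the adult share there was not tested. The embryonic share was 26.9%, 27.1%, 16.7% and 28.6% in the 4 fractions and the fetal share 72.3%, 71.7%, 82.9% and 65.3%. CD34hi CD41- cells, with the lowest summed intensity of 962.1, had the highest fetal share.

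In the alpha-like locus HBZ took 64.2% of the summed intensity on day 6, 63.6% on day 7 and 48.8% on day 8, so the alpha genes gained between days 7 and 8. Among the fractions HBZ took 81.9% in CD34- CD41-, 75.5% in CD34lo CD41-, 57.3% in CD34hi CD41- and 53.2% in CD34lo CD41lo cells. The CD34hi CD41- value rests on a summed intensity of 88.6, with HBA1 not detected. The alpha-like locus thus had its largest alpha share among well-detected fractions in the CD34lo CD41lo cells, which also had the largest adult share of the beta-like locus.

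Genes with a pattern like HBE1 were ranked by Pearson r of log2 levels over the 13 arrays, among 3932 genes with a range of at least 2 on that scale. The globins HBG1 (0.9948), HBZ (0.992) and HBG2 (0.9913) were closest among the members, then HBA1 (0.8908) and HBA2 (0.8826). HBD (0.7665), HBBP1 (0.7428), HBB (0.741) and HBQ1 (0.634) were less alike. The 10 closest other genes were CYP2F1 (0.9928), ALDH1A1 (0.9551), ALAS2 (0.9444), MSLN (0.9296), TEX2 (0.9259), SERPINF1 (0.9234), CPQ (0.92), LOC647322 (0.9197), GSTA2 (0.9189) and FAH (0.9151). CYP2F1, a cytochrome P450 gene, stood at 4.75 on day 4, 8.98 on day 8, 6.16 in CD34hi CD41- cells and 8.91 in CD34lo CD41lo cells. The arrays share a cell line and lie on 2 chips, so these values describe likeness only.

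The sorted fractions set much of this ranking. Over the 9 days alone the 10 closest genes were SLCO2B1, AVP, FTCD, TTR, CREB3L3, MSLN, ASIP, UGT2B28, DDC and CYP2F1, of which 2 were among the 10 over 13 arrays. TTR, which encodes a plasma carrier protein made by yolk sac and liver endoderm, had an r of 0.9954 over the 9 days and 0.8427 over the 13 arrays. It stood at 12.18 in CD34- CD41- cells and 6.87 in CD34lo CD41lo cells, where HBE1 stood at 11.13 and 13.36. TTR thus followed HBE1 over days and parted from it between the fractions.

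**Figure D5:**
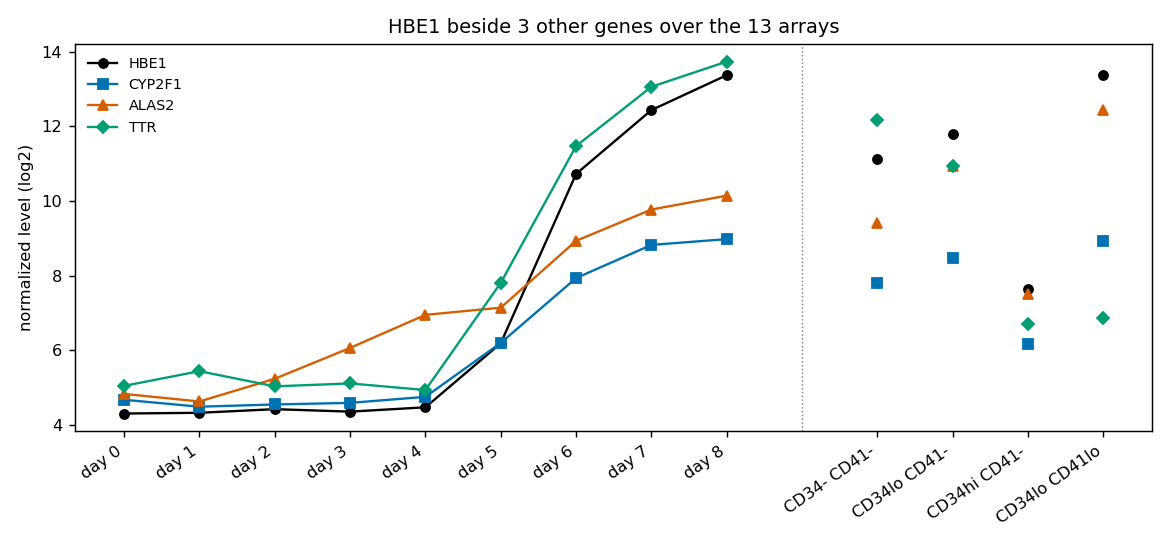
Normalized log2 level (y axis) of HBE1, CYP2F1, ALAS2 and TTR on the 9 arrays of days 0 to 8 and, right of the dotted line, the 4 day 7 fractions (x axis), 1 array each. TTR and HBE1 climbed together to 13.74 and 13.37 on day 8, whereas TTR stood at 6.87 and HBE1 at 13.36 in CD34lo CD41lo cells.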

How the data were processed

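Total RNA was labelled as biotinylated cRNA, per the labels' protocols. The authors deposited non-normalized intensity values for the 13 arrays, some below 0 (lowest -28.8), with a detection value beside each per the file headers, a fraction between 0 and 1, of which 1 minus the value was used as detection p. The deposited series matrix holds the authors' own log2 values, an alternative scale here, with no stated transformation in the sources used. GenomeStudio 2010.2 and lumi are named in the submitters' processing notes. Columns were assigned to samples by name and checked against the matrix (rank correlation with the own sample at least 0.999995, with others at most 0.904). Of 47231 probes 1 lacked values and was dropped.

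The 13 arrays were corrected for background and quantile normalized together by neqc (limma 3.58.1, R 4.3.3, offset 16). Probes detected at p below 0.01 on at least 1 array of an experiment were tested. Day entered the model as a natural spline (splines 4.3.3) with 3 degrees of freedom, which left 5 residual degrees of freedom, with moderated tests adjusted by Benjamini-Hochberg over all 22783 probes; 11053 had an unadjusted trend p below 0.05. A change was called at 2-fold or more with adjusted p under 0.05. The procedure was run on simulated data with independent noise and planted changes smaller than that of HBE1. No result given here rests on that run. Fold differences between single arrays raised an undetected side to its floor and are then given as "at least". Nothing in the labels shows separate cultures, so errors may be technical. Genes were named by rule: all members, the 10 genes most like HBE1 and up to 4 per list with the largest change from day 0 to 8, with a few regulators and sort markers. Summed marker levels add linear normalized levels, less the offset, of 1 probe per gene. The values of 1 list gene that the rule names are not reported here. Members and lists were chosen with earlier results of these data known.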

Additional observations from a re-analysis of the deposited data

How the results depend on the processing

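Of 558 recomputed fitted changes of globin probes, 529 kept their direction and their side of the threshold. Globin probes with a trend numbered 10 or 11 under every setting, those that rose from day 4 to 8 between 9 and 11, and those that rose from day 0 to 8 between 9 and 10. The count that changed from day 0 to 4 (1) was 0 with the submitters' values and without a filter, 3 with a bend at day 4, and 0 to 1 when single days were left out. It was also 0 with the brightest probe per gene, but that setting leaves out HBA2 probe 2, the 1 probe called, and so cannot check its call. The change of HBA2 probe 2 from day 0 to 8 missed the threshold with 2 degrees of freedom (1.23, adjusted p = 0.0555) and with a bend (adjusted p = 0.0734). HBB from day 0 to 4 reversed at -0.015, -0.04 and -0.11 with 2 and 4 degrees of freedom and a bend, and ran from -0.001 to 0.232 when single days were left out. HBBP1 from day 0 to 4 reversed at 0.044 with 4 degrees of freedom and ran from -0.27 to 0.082 when single days were left out, and HBZ reversed at -0.24 and -0.203 with 4 degrees of freedom and a bend. MB from day 0 to 8 reversed at 0.324 with 2 degrees of freedom or a bend and ran from -0.138 to 0.08 when single days were left out. None of these reversed changes was called under either setting, and the cause was not tested. CD34lo CD41lo over CD34lo CD41- gave 7 probes at a limit of 4-fold, and CD34lo CD41- over CD34- CD41- gave 5 with the submitters' values and 0 at 4-fold. The adult share of CD34hi CD41- cells was 1.52% from normalized values (0.457% from intensities), with both genes below detection. Of the 10 genes most like HBE1, 2 were among the 10 over 9 days. No paired analysis was possible because each day and each fraction has 1 array and no label ties arrays to one another.

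Levels near the detection floor, such as HBB in unsorted cells, limit what these arrays resolve, and 1 array per day or fraction leaves the fractions without any error.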

Other observations

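Beyond the members, 4 genes of the wider globin family were on the array and neither of the 2 tested passed from day 0 to 8. HBM, the mu globin gene of the alpha-like locus, was detected on a single array, that of CD34lo CD41lo cells, at 5.79. It was chosen after its values were seen. NGB, the globin of neurons, was detected on none of the 13 arrays. CYGB, a globin of fibroblast-like cells, stood at 4.85 and undetected on day 1, 8.41 on day 3, 6.89 on day 5 and 7.85 on day 8, with its highest day at day 3. Its fitted change from day 0 to 8 was 2.53 ± 1.05 (limma, adjusted p = 0.107). CYGB passed with a spline of 2 degrees of freedom (2.27, adjusted p = 0.0456) and with a bend at day 4 (2.27, adjusted p = 0.0353). In the fractions CYGB was lowest in CD34lo CD41lo cells at 6.13 and highest in CD34lo CD41- cells at 6.86. MB, the globin of muscle, changed by -0.01 ± 0.36 over days 0 to 8 (adjusted p = 0.9908).

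AHSP, the chaperone that holds free alpha chains, was looked at after the lists were counted. Among the days it was highest on day 2 at 6.19, it stood at 5.51 on day 8, and was highest in CD34lo CD41lo cells at 6.35. Its fitted change from day 4 to 8 was -0.07 ± 0.31 (adjusted p = 0.9272), over the days in which HBA1 and HBA2 rose. AHSP was not detected on day 4 (5.22) and stood between 5.44 and 5.56 on days 5 to 8. Those levels lay close to the floors of those arrays, 5.29 to 5.37, which limits what the fitted change can show.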
